A study of Homo sapiens with 10 samples.

Results

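Heterogeneous nuclear ribonucleoproteins (hnRNPs) coat newly made transcripts in the nucleus, and through the sequences they bind they influence splice site choice, 3′ end formation, export and decay of mRNA. Many of them act against or beside the SR proteins, the splicing factors that the kinase SRPK1 phosphorylates. Their own mRNAs are among the most abundant of a dividing cell. Newly made (nascent) and total RNA of 10 hnRNP genes, HNRNPA0, HNRNPA1, HNRNPA2B1, HNRNPC, HNRNPD, HNRNPF, HNRNPH1, HNRNPK, HNRNPM and HNRNPU, were followed here. They were taken by symbol after the transcripts of the count tables had been mapped to 31015 genes.

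The cells were 22RV1, a cell line from a castration-resistant prostate carcinoma. There were 5 groups of 2 libraries: untreated control cells, and cells kept for 4 h in SRPIN340 (20 μM), which inhibits SRPK1, in Endovion (50 μM), used by the study for the same purpose, in THZ531, which inhibits CDK12, or in THZ531 plus Endovion (50 μM). CDK12 is a kinase of RNA polymerase II that helps it to elongate. The THZ531 dose is 100 nM in the study's methods but 150 nM in the series text. All groups received 4-thiouridine for the last 10 min, so that RNA made in that time carries a label that sequencing reads as a T>C change. All cells were thus labelled, and no library without the label was analysed here to give the background of T>C reads. How many of the T>C reads counted as nascent RNA are errors is therefore not known. All 4 treated groups are compared with the same 2 control libraries, so their changes are not independent of each other. The labels call the libraries of a group replicates and do not say that they came from separate cultures. The p-values rest on the spread between libraries, which may be technical. The tests estimate this spread for a gene partly from other genes, so it is not only the spread of that gene.

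The libraries hold 3′ ends of mRNAs, with 35517462 to 53592904 mapped reads each, of which 1011598 to 1576121 were T>C reads on genes, or 5.05% to 5.70% of the reads on genes. Of markers of prostate luminal cells, KRT18 (348 to 472 CPM, counts scaled by library size) and KRT8 (86.8 to 141 CPM) were high, and KLK3 and TMPRSS2 were low (at most 8.09 and 2.79 CPM). Of 9 markers of leukocytes, fibroblasts and endothelium, CD3E, COL1A2, CDH5 and VWF had no read and COL1A1 had the most, 1.57 to 3.51 CPM. The 2 control libraries differed from each other for some of the 10 genes, and which of them is the unusual one cannot be told. Control replicate 2 had 173 total CPM for HNRNPF against 318 in control replicate 1, 377 against 641 for HNRNPK, and 508 against 746 for HNRNPA2B1. Results of these genes are therefore also given without it where that ends a call.

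All 10 genes passed the filter on low counts, and all were abundant. Each had 4119 to 35697 reads and 194 to 1655 T>C reads in every library. Among 13691 genes with at least 100 reads in all libraries together, the 10 genes stood between the 97.3 and 99.4 percentile of total CPM. Per kilobase of the 3′ UTR counted they stood between the 83.2 percentile (HNRNPA0, with a 3′ UTR of 7498 bases) and the 99.0 percentile (HNRNPM, with 260 bases). Together they took 0.524% to 0.767% of all reads on genes, with the lowest share in control replicate 2 and the highest in THZ531 replicate 2. No interval of the 10 genes overlapped that of another gene on the same strand. Near-identical copies elsewhere in the genome exist for some of them, HNRNPA1 above all, and the tables list no read as mapped to several places, so how such reads were shared out is not known and the counts of HNRNPA1 are less certain.

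For 6 of the 10 genes, the 3′ UTR interval with most reads had the same start as another annotated interval at least 200 bases shorter. Reads could thus be divided between the proximal part, which both share, and the distal part. Where several shorter intervals qualified, the one that left most reads in the smaller part was taken, so these same counts chose the split. Distal reads need not reach the distal end. In HNRNPA1 the first 666 bases held 179511 of 185602 reads, and in HNRNPU the first 1044 bases held 222822 of 245679. HNRNPK holds 2 intervals of this kind (441 and 1153 bases), but neither was its interval with most reads, and it was not divided. The poly(A) signals near the ends of these parts are shown for the genes whose use of the parts is described further on. AATAAA and ATTAAA, the usual signals for cleavage and polyadenylation, were searched on the transcribed strand in the last 50 bases before each end. Of 53893 counted 3′ UTR intervals of at least 50 bases, 31.9% held AATAAA there, 9.99% ATTAAA and 39.9% either. The signal is in capitals, with 12 bases on each side, in build hg38.
HNRNPF, proximal end, minus strand, chr10:43386023-43386052: tttttttcttaaAATAAAgactttttcaca
HNRNPC, proximal end, minus strand, chr14:21210573-21210602: ttttttcctcaaAATAAAcaagtccttatt
HNRNPC, distal end, minus strand, chr14:21209154-21209183: aatcatctctacATTAAAatacctgataaa
HNRNPU, distal end, minus strand, chr1:244850303-244850332: tgtaaaataagcATTAAAagtactttgtcc
Neither hexamer occurred in the 50 bases before the distal end of HNRNPF or the proximal end of HNRNPU. HNRNPA1, HNRNPA2B1 and HNRNPD held AATAAA before both ends.

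The main changes in nascent RNA, measured as T>C reads, were in HNRNPF, HNRNPA2B1 and HNRNPU. HNRNPF was higher with each of the 4 treatments, HNRNPA2B1 with Endovion, THZ531 and both together, and HNRNPU with the 2 treatments that contain THZ531. None of the 10 genes passed the test as lower than control. Log2 fold changes were below 0 for 3, 4, 2 and 3 of them with SRPIN340, Endovion, THZ531 and THZ531 with Endovion. With SRPIN340, 1 of 10 genes was called, that is, had a Benjamini-Hochberg adjusted p under 0.05 in edgeR's quasi-likelihood test over 9946 genes, against 1.04% of all genes tested (0.845% as higher). With Endovion it was 2 of 10, against 2.66% (2.04% as higher). With THZ531 it was 3 of 10, against 7.46% (3.86% as higher), and with THZ531 and Endovion 3 of 10, against 8.10% (4.61% as higher). Most of the genes tested were less abundant than the 10, so these shares are not those of genes with like counts. The median log2 fold change of the 10 genes was 0.05, 0.08, 0.13 and 0.21 in this order, beside -0.01, -0.01, -0.02 and -0.01 over all genes tested. As the libraries come from many cells, more RNA per cell and more cells with the RNA cannot be told apart.

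**Figure D1:**
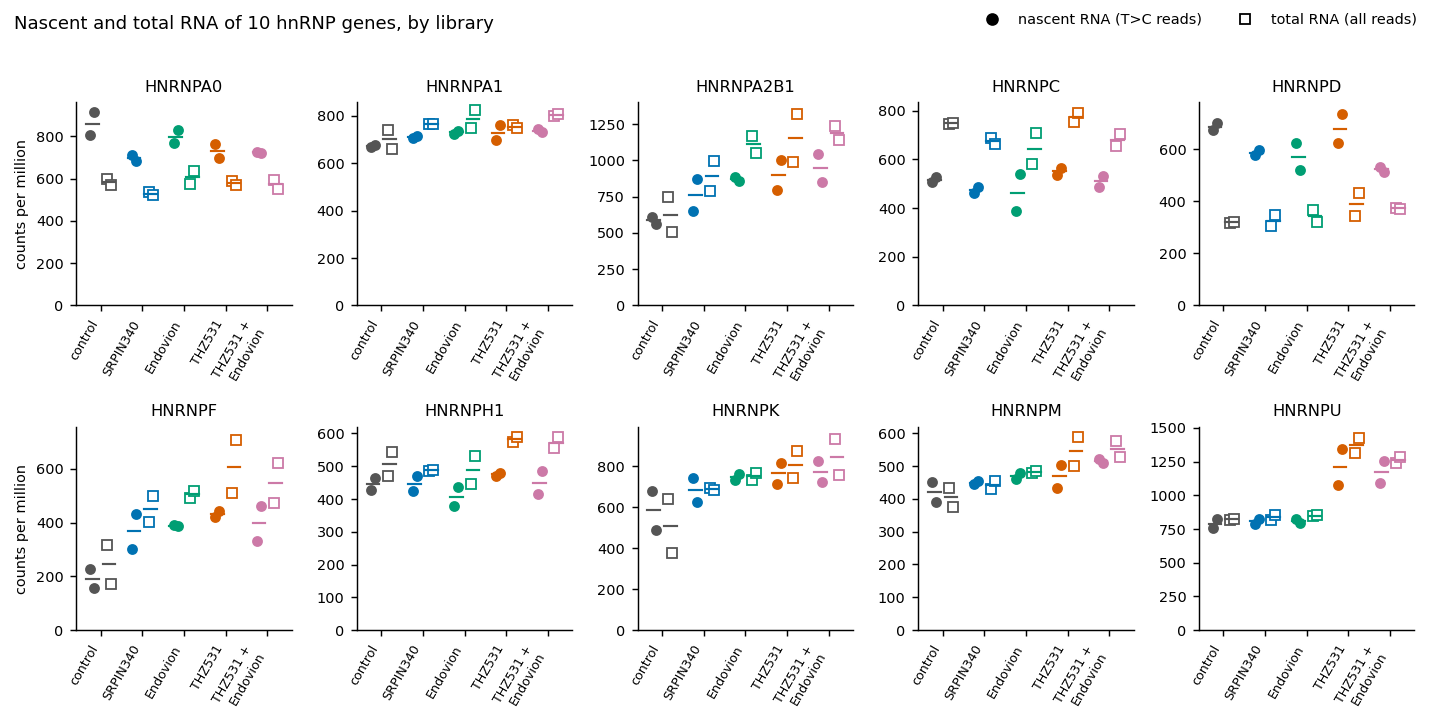
CPM (y axis, from 0) of nascent RNA (filled circles, T>C reads) and total RNA (open squares, all reads) of 10 hnRNP genes in each library of 5 groups (x axis), with a line at the mean of 2 libraries. HNRNPF lies above both control libraries in every treated group, and HNRNPU in the groups with THZ531, where nascent values are 1077 to 1344 against 758 and 824 in control cells.

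HNRNPF and HNRNPH1 belong to a subfamily that binds runs of G and acts in splicing and 3′ end formation. HNRNPF (chr10:43385617-43409186, minus strand, hg38) had 226 and 156 nascent CPM in control cells. It had 303 and 431 with SRPIN340, 389 and 387 with Endovion, 420 and 444 with THZ531, and 331 and 462 with THZ531 and Endovion. Every treated library was above both control libraries. The log2 fold change was 0.94 ± 0.18 (SE, n = 2 libraries per group) with SRPIN340 (edgeR, adjusted p = 0.00121). It was 1.02 ± 0.18 with Endovion (adjusted p = 0.000181), 1.17 ± 0.18 with THZ531 (adjusted p = 9.96e-06) and 1.05 ± 0.18 with THZ531 and Endovion (adjusted p = 5.08e-05).

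Without control replicate 2, the change of HNRNPF was 0.70 with SRPIN340 (adjusted p = 0.184), and without SRPIN340 replicate 2 it was 0.66 (adjusted p = 0.287). With Endovion, the call of HNRNPF held without any library and was lost only when overlapping intervals were summed (1.06, adjusted p = 0.0684). The calls of HNRNPF with THZ531 and with THZ531 and Endovion held in all 18 alternatives, with log2 fold changes of 0.93 to 1.48 and 0.79 to 1.35.

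HNRNPH1 (chr5:179614178-179634784, minus strand), the closest relative of HNRNPF among the 10 genes, showed another pattern. It had 426 and 463 nascent CPM in control cells and 378 to 485 in the 8 treated libraries. Its log2 fold changes lay between -0.13 ± 0.16 (Endovion) and 0.10 ± 0.16 (THZ531), none called.

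Of the A/B group, HNRNPA2B1 (chr7:26171151-26201529, minus strand) takes part in splicing and in transport of mRNA. Its nascent CPM were 609 and 565 in control cells, 655 and 875 with SRPIN340, 883 and 861 with Endovion, 794 and 1001 with THZ531, and 1045 and 855 with THZ531 and Endovion. All 8 treated libraries were above both control libraries. The log2 fold change was 0.38 ± 0.15 with SRPIN340 (edgeR, adjusted p = 0.302), which did not pass. It was 0.57 ± 0.15 with Endovion (adjusted p = 0.0236), 0.61 ± 0.15 with THZ531 (adjusted p = 0.00655) and 0.69 ± 0.15 with THZ531 and Endovion (adjusted p = 0.00159). These calls depend on single libraries. Without control replicate 2 the adjusted p was 0.216 with Endovion and 0.0701 with THZ531. Without Endovion replicate 1 or 2 it was 0.177 or 0.0873 with Endovion, without THZ531 replicate 2 it was 0.252 with THZ531, and without THZ531_Endovion replicate 1 it was 0.102 with both compounds.

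HNRNPA1 (chr12:54280193-54287088, plus strand), which represses many splice sites and shuttles with mRNA to the cytoplasm, had 669 and 678 nascent CPM in control cells and 698 to 759 in treated cells. All treated libraries lay above both control libraries, but the log2 fold changes were only 0.07 to 0.13 with an SE of 0.14, and none was called. HNRNPA0 (chr5:137745651-137754363, minus strand), which binds AU-rich elements, had 805 and 914 in control cells and 684 to 832 in treated cells, with log2 fold changes from -0.30 ± 0.14 (SRPIN340, adjusted p = 0.447) to -0.10 ± 0.14 (Endovion).

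HNRNPU (chr1:244840638-244864560, minus strand), also called SAF-A, binds both RNA and DNA and is a scaffold component of chromatin. Its nascent CPM were 758 and 824 in control cells, 788 and 827 with SRPIN340, and 826 and 795 with Endovion. They were 1077 and 1344 with THZ531 and 1088 and 1258 with THZ531 and Endovion. The 4 libraries with THZ531 were above all 6 libraries without it. Against control, the log2 fold change was 0.61 ± 0.15 with THZ531 (edgeR, adjusted p = 0.00338) and 0.57 ± 0.15 with THZ531 and Endovion (adjusted p = 0.00704), and 0.03 ± 0.14 and 0.04 ± 0.15 with SRPIN340 and Endovion.

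THZ531 was also set against the 2 other compounds directly, a comparison added after the values had been seen. HNRNPU was the 1 gene of 10 called in nascent RNA, with 0.58 ± 0.14 against SRPIN340 (adjusted p = 0.00953, 3.93% of all genes called) and 0.58 ± 0.15 against Endovion (adjusted p = 0.00959, 4.40%). With THZ531 and Endovion against Endovion alone, HNRNPU was again the 1 gene called, at 0.53 ± 0.15 (adjusted p = 0.0456, 1.31%). Without THZ531 replicate 2 the nascent change of HNRNPU with THZ531 was 0.45 against control (adjusted p = 0.195), 0.41 against SRPIN340 (adjusted p = 0.327) and 0.41 against Endovion (adjusted p = 0.310). Leaving out either SRPIN340 library (adjusted p = 0.172 and 0.0745) or either Endovion library (0.0644 and 0.0938) also ended the call of THZ531 against that compound. With both compounds against control, the change was 0.46 without THZ531_Endovion replicate 2 (adjusted p = 0.118) and 0.51 without control replicate 1 (adjusted p = 0.0551). Against Endovion alone, the call of both compounds was lost without any 1 of the 8 treated libraries, at 0.43 to 0.63 with adjusted p from 0.0511 to 0.363. In total RNA the same 5 comparisons of HNRNPU passed in every alternative tried, as given below.

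The 4 other genes were not called in nascent RNA against control. HNRNPK (chr9:83968083-83980631, minus strand), a protein with KH domains that binds runs of C, had 681 and 490 nascent CPM in control cells and 627 to 825 in treated cells. Its log2 fold change was 0.38 ± 0.15 with THZ531 (edgeR, adjusted p = 0.119) and 0.40 ± 0.15 with THZ531 and Endovion (adjusted p = 0.0996). Without control replicate 1, the higher of the 2 control libraries, these were 0.66 (adjusted p = 0.0158) and 0.67 (adjusted p = 0.0131), and the change with Endovion was 0.61 (adjusted p = 0.0391). HNRNPM (chr19:8444767-8489114, plus strand), a splicing regulator, had log2 fold changes of 0.09 to 0.29. HNRNPC (chr14:21209136-21269494, minus strand), which forms tetramers on U-rich stretches of pre-mRNA, had -0.16 to 0.09. HNRNPD (chr4:82352498-82374503, minus strand), also called AUF1, a factor in the decay of mRNAs with AU-rich elements, had -0.39 ± 0.15 with THZ531 and Endovion (adjusted p = 0.0997), with 534 and 514 CPM against 673 and 700.5 in control cells.

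**Figure D2:**
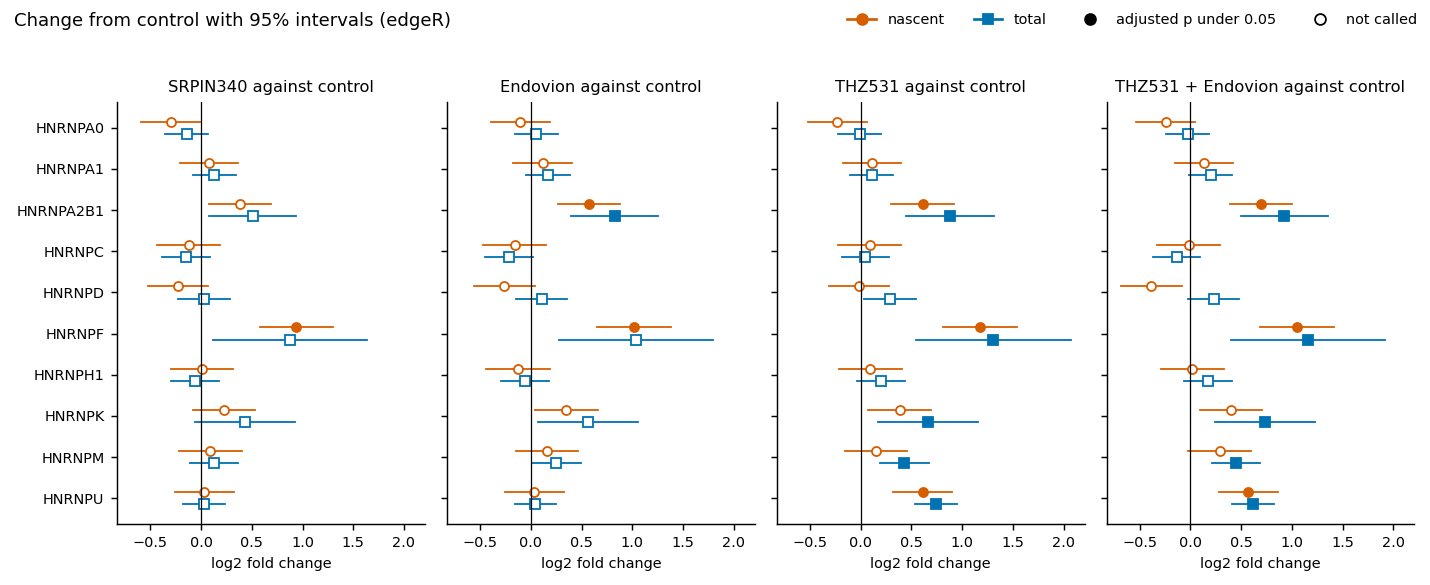
Log2 fold change against control (x axis) of 10 hnRNP genes (y axis) for 4 treatments, in nascent RNA (orange circles) and total RNA (blue squares), with 95% intervals derived from edgeR's test statistic. Filled symbols passed an adjusted p under 0.05. For both kinds of RNA, the intervals of HNRNPF and HNRNPA2B1 lie wholly to the right of 0 in all 4 panels. Those of HNRNPU do so in the 2 panels with THZ531, and those of HNRNPK in all panels but SRPIN340. Several other genes have estimates above 0 with intervals that reach 0.

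Endovion and SRPIN340 did not differ detectably in any of the 10 genes. Of these, 0 were called in nascent RNA by edgeR (0.0603% of all genes were) and 0 by DESeq2, and 0 had an unadjusted p under 0.05. For HNRNPF the difference, Endovion minus SRPIN340, was 0.08 with a 95% interval from -0.28 to 0.43, and for HNRNPA2B1 it was 0.19, from -0.12 to 0.49. THZ531 with Endovion against THZ531 alone gave 0 called of 10 with edgeR (0.322% of all genes), 0 with DESeq2 and 1 at an unadjusted p under 0.05, HNRNPD at -0.37 ± 0.15. The difference in HNRNPF was -0.12, with a 95% interval from -0.48 to 0.23, and in HNRNPU -0.04, from -0.33 to 0.24.

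Whether the 2 compounds add up was tested as their interaction, which is 0 where the log2 change with both equals the sum of the single ones. It passed for 1 of 10 genes, HNRNPF, at -1.14 ± 0.25 (edgeR, adjusted p = 0.0252), against 0.302% of all genes. HNRNPF changed by 1.02 with Endovion and 1.17 with THZ531 and by 1.05 with both. Without control replicate 2 it was -0.90 (adjusted p = 0.261). The call was also lost without THZ531 replicate 2 (adjusted p = 0.284), THZ531_Endovion replicate 1 (adjusted p = 0.268), Endovion replicate 1 (adjusted p = 0.121) or Endovion replicate 2 (adjusted p = 0.104). In total RNA the interaction of HNRNPF was -1.19 ± 0.44 (adjusted p = 0.355), and no gene of the 10 was called by edgeR or DESeq2, with 2 at an unadjusted p under 0.05 and 0.00681% of all genes called.

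In total RNA, measured as all reads, more of the 10 genes were called than in nascent RNA in the 2 groups with THZ531, and fewer with SRPIN340 or Endovion. With THZ531, 5 of 10 genes were called as higher than control and none as lower (edgeR over 14690 genes, 30.7% of which were called, 16.6% as higher). With THZ531 and Endovion, 5 were called as higher and none as lower (29.0% of all genes called, 16.6% as higher). HNRNPA2B1, HNRNPF, HNRNPK, HNRNPM and HNRNPU made up both counts. With Endovion 1 of 10 rose, HNRNPA2B1 (11.4% of all genes called, 8.90% as higher). With SRPIN340 0 of 10 were called by edgeR or DESeq2, with 2 at an unadjusted p under 0.05, HNRNPA2B1 and HNRNPF (1.96% of all genes called, 1.82% as higher). The median log2 fold change of the 10 genes was 0.08, 0.14, 0.36 and 0.34 with SRPIN340, Endovion, THZ531 and both, beside 0.03, 0.02, -0.01 and 0.00 over all genes.

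HNRNPU had 815 and 826 total CPM in control cells, 820 and 855 with SRPIN340, 843 and 851 with Endovion, 1316 and 1429 with THZ531, and 1237 and 1283 with THZ531 and Endovion. The groups with and without THZ531 did not overlap. The log2 fold change against control was 0.74 ± 0.10 with THZ531 (edgeR, adjusted p = 7.59e-05) and 0.62 ± 0.10 with THZ531 and Endovion (adjusted p = 0.000353). Against SRPIN340 and Endovion, THZ531 gave 0.71 ± 0.10 and 0.70 ± 0.10 (adjusted p = 0.000112 and 0.000121), and THZ531 with Endovion against Endovion gave 0.57 ± 0.10 (adjusted p = 0.00177). In these 3 comparisons, 19.1%, 18.6% and 8.22% of all genes were called, and HNRNPU was the 1 gene of 10 in each. All 5 results of HNRNPU passed in all 17 alternatives.

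HNRNPF had 318 and 173 total CPM in control cells, 403 and 498 with SRPIN340, 493 and 517 with Endovion, 510 and 705 with THZ531, and 474 and 620 with THZ531 and Endovion. All 8 treated libraries were above both control libraries. With control libraries so far apart, its log2 fold change had a wide error: 0.88 ± 0.31 with SRPIN340 (edgeR, adjusted p = 0.208), 1.04 ± 0.31 with Endovion (adjusted p = 0.0864), 1.31 ± 0.32 with THZ531 (adjusted p = 0.0230) and 1.15 ± 0.32 with both (adjusted p = 0.0364). The call with THZ531 was lost without THZ531 replicate 2 (adjusted p = 0.122) or either Endovion library (0.0555 and 0.0578). The call with both compounds was lost without THZ531_Endovion replicate 1 or 2 (0.0810 and 0.160), either Endovion library (0.0787 and 0.0812) or SRPIN340 replicate 2 (0.0513). Without control replicate 1, HNRNPF was also called with SRPIN340 (adjusted p = 0.00402) and Endovion (1.54, adjusted p = 0.00136).

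HNRNPA2B1 had 746 and 508 total CPM in control cells, 786 and 1000 with SRPIN340, 1170 and 1051 with Endovion, 993 and 1320 with THZ531, and 1239 and 1143 with THZ531 and Endovion. All treated libraries were above both control libraries. The log2 fold change was 0.82 ± 0.19 with Endovion (edgeR, adjusted p = 0.0242), 0.88 ± 0.19 with THZ531 (adjusted p = 0.00707) and 0.93 ± 0.19 with both (adjusted p = 0.00596). Without control replicate 2 the change with Endovion was 0.53 (adjusted p = 0.168), and its adjusted p was also above the threshold without either Endovion library (0.191 and 0.135) or either THZ531_Endovion library (0.0592 and 0.0521). Without control replicate 1 the change with SRPIN340 was 0.82 (adjusted p = 0.00981). The call with THZ531 was lost without THZ531 replicate 2 (0.61, adjusted p = 0.0564), and the call with both without THZ531_Endovion replicate 1 (0.81, adjusted p = 0.0636).

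HNRNPK had 641 and 377 total CPM in control cells and 683 to 935 in treated cells. Its log2 fold change was 0.67 ± 0.22 with THZ531 (edgeR, adjusted p = 0.0463) and 0.73 ± 0.22 with both (adjusted p = 0.0343), but without control replicate 2 it was 0.29 (adjusted p = 0.171) and 0.35 (adjusted p = 0.108). With THZ531 the call of HNRNPK was lost without any library but control replicate 1, at adjusted p from 0.0571 to 0.258. With both compounds it was also lost without either Endovion library (0.0854 and 0.0889) or either THZ531_Endovion library (0.210 and 0.0547). Without control replicate 1, HNRNPK was also called with SRPIN340 (0.87, adjusted p = 0.00139) and Endovion (0.99, adjusted p = 0.000301). HNRNPM had 434 and 375 in control cells, 500 and 590 with THZ531 and 577 and 528 with both, at 0.43 ± 0.11 (adjusted p = 0.00968) and 0.45 ± 0.11 (adjusted p = 0.00788). Without control replicate 2 these were 0.29 (adjusted p = 0.137) and 0.30 (adjusted p = 0.128). Without THZ531 replicate 2 the first was 0.25 (adjusted p = 0.231), and without THZ531_Endovion replicate 1 the second was 0.33 (adjusted p = 0.121). The other 5 genes had total log2 fold changes between -0.22 ± 0.11 (HNRNPC with Endovion) and 0.29 ± 0.12 (HNRNPD with THZ531), none called. Without THZ531 replicate 1, HNRNPD with THZ531 was called at 0.40 (adjusted p = 0.0359).

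THZ531 with Endovion against THZ531 alone gave 0 called genes of 10 in total RNA by edgeR and by DESeq2, with 0 at an unadjusted p under 0.05 (0.511% of all genes called). Endovion against SRPIN340 also gave 0 of 10 by both tools, with 0 at an unadjusted p under 0.05 (0.0340% of all genes called).

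The labelled share of a gene, its T>C reads as a percentage of all its reads, depends on how much of the RNA was made in the last 10 min. Over all libraries it ranged among the 10 genes from 3.78% for HNRNPC and 4.03% for HNRNPF to 7.05% for HNRNPA0 and 9.34% for HNRNPD, beside a median of 4.72% over genes with at least 100 reads. HNRNPD and HNRNPA0 stood at the 86.6 and 75.5 percentile of these genes and HNRNPC at the 33.0 percentile. The 6 others lay between 4.34% and 5.25%. The 95% Wilson intervals of a share in a single library reach 0.213 to 0.716 percentage points to each side and cover counting error only, since it is not stated whether reads were reduced to molecules. Differences in T content and in errors read as T>C also enter the order of the genes.

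**Figure D3:**
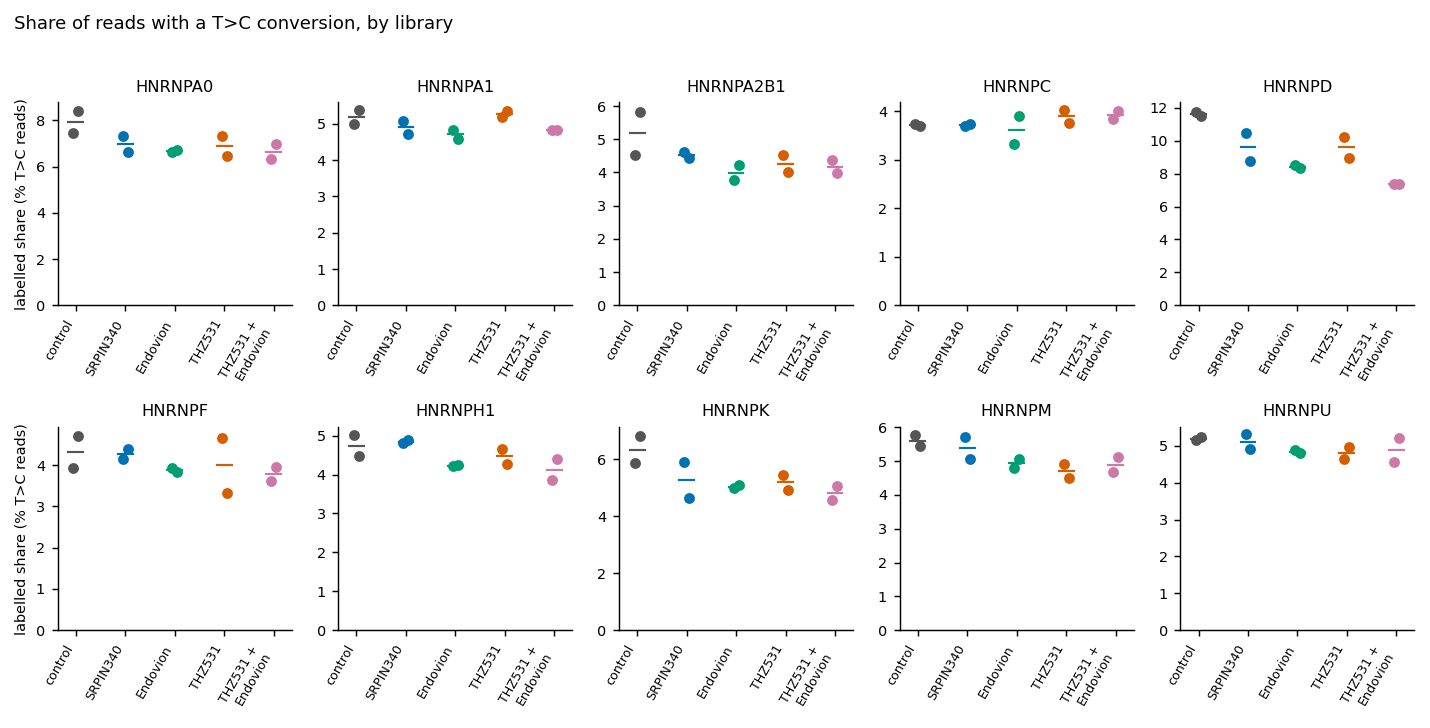
Share of reads with a T>C conversion (y axis, percent, from 0) of 10 hnRNP genes in each library of 5 groups (x axis), with a line at the mean of 2 libraries. HNRNPD has its highest values in control cells, at 11.7% and 11.5%, and its lowest with THZ531 and Endovion, at 7.39% and 7.35%.

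HNRNPD was the 1 gene of 10 called for a change in its labelled share, with THZ531 and Endovion together. It was 11.7% and 11.5% in control cells, 10.5% and 8.75% with SRPIN340, 8.51% and 8.33% with Endovion, 10.2% and 8.96% with THZ531, and 7.39% and 7.35% with THZ531 and Endovion. All 8 treated libraries were below both control libraries. The library's own labelled share, which the test takes out, was 5.70% and 5.63% in control cells and 5.05% and 5.24% with both compounds. With both compounds, the log2 odds of a T>C read fell by 0.57 ± 0.11 (SE) relative to the library (edgeR, adjusted p = 0.00475, with 1.01% of 9943 genes called). The change was -0.22 ± 0.11 with SRPIN340, -0.36 ± 0.11 with Endovion (adjusted p = 0.184) and -0.24 ± 0.11 with THZ531, none called. Without THZ531_Endovion replicate 1 or 2 the change with both was -0.61 (adjusted p = 0.0599) or -0.54 (adjusted p = 0.0972).

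With SRPIN340, Endovion and THZ531 alone, 0 of 10 genes were called for the labelled share (edgeR, with 0.171%, 0.523% and 0.422% of all genes called), and 0, 2 and 2 had an unadjusted p under 0.05. These were HNRNPA2B1 and HNRNPD with Endovion, and HNRNPD and HNRNPK with THZ531. With both compounds 3 had one, HNRNPC, HNRNPD and HNRNPK. HNRNPF and HNRNPU, with higher nascent and total RNA, had shares whose fitted change was at most 0.10 in size on the log2 scale in each treatment. Their T>C reads thus moved with all their reads, and how far errors enter this was not tested. For HNRNPU with THZ531, the shares were 4.64% and 4.96% against 5.15% and 5.23% in control cells, a log2 change of -0.05 ± 0.10.

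In HNRNPD the 2 parts of the 3′ UTR differed widely in their labelled share. The proximal part of 321 bases (59150 reads in all libraries) had 12.1% T>C reads and the distal part of 1336 bases (19498 reads) 2.92%. In control cells 14.2% of the proximal reads of either library were T>C reads, and with THZ531 and Endovion 9.97% and 9.75%. The distal values were 2.75% and 2.80% against 2.96% and 2.08%. The distal values of the groups overlapped and the proximal ones did not. This split was not tested, and how many of the proximal T>C reads come from the label is not known. A separate counted interval of HNRNPD, of 30 bases, held 6022 reads with 2.69% T>C reads and also enters the labelled share of the gene. It had 427 and 156 reads in control cells and 954 and 602 with THZ531 and Endovion. The call of the gene's share with both compounds held when only the interval with most reads was counted. HNRNPC and HNRNPU had the opposite order, with 3.27% proximal and 9.62% distal in HNRNPC and 3.79% proximal and 9.60% distal in HNRNPU. Of 1447 genes with at least 1000 reads in each part, 60.7% had the higher labelled share in the distal part.

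The use of the 2 parts of the 3′ UTR was compared as the distal share, the percentage of reads that lie in the distal part. This comparison was added after the count tables had been seen, and was tested in 3004 genes, among them the 6 of the 10 genes with a split. HNRNPF shifted to the proximal part. Its distal share was 14.8% and 21.6% in control cells, 11.6% and 11.1% with SRPIN340, 9.90% and 9.37% with Endovion, 9.03% and 7.31% with THZ531, and 9.50% and 8.59% with both. All 8 treated libraries were below both control libraries. The log2 odds fell by 1.09 ± 0.22 with Endovion (edgeR, adjusted p = 0.0305), by 1.29 ± 0.22 with THZ531 (adjusted p = 0.00913) and by 1.14 ± 0.22 with both (adjusted p = 0.0146). In these comparisons 1, 1 and 2 of the 6 genes were called, against 4.29%, 12.8% and 12.5% of all genes. With SRPIN340 the change was -0.82 ± 0.22 (adjusted p = 0.141).

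Proximal CPM of HNRNPF were 271 and 136 in control cells and 357 to 654 in treated cells. Distal CPM were 47.0 and 37.4 in control cells and 45.0 to 55.4 in treated cells. Proximal values of all 8 treated libraries were thus above both control libraries, and distal values overlapped with them. Without control replicate 2 the change in distal share was -0.75 with Endovion, -0.96 with THZ531 and -0.81 with both, and these calls were lost. The call with THZ531 was also lost without THZ531 replicate 2 (-1.12, adjusted p = 0.0799), and that with both without THZ531_Endovion replicate 1 or 2 (0.0889 and 0.0754). The call with Endovion was lost without either library of the Endovion, SRPIN340 or THZ531_Endovion group, at adjusted p from 0.0576 to 0.225. Without control replicate 1, the change with SRPIN340 was -1.16 (adjusted p = 0.0250).

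**Figure D4:**
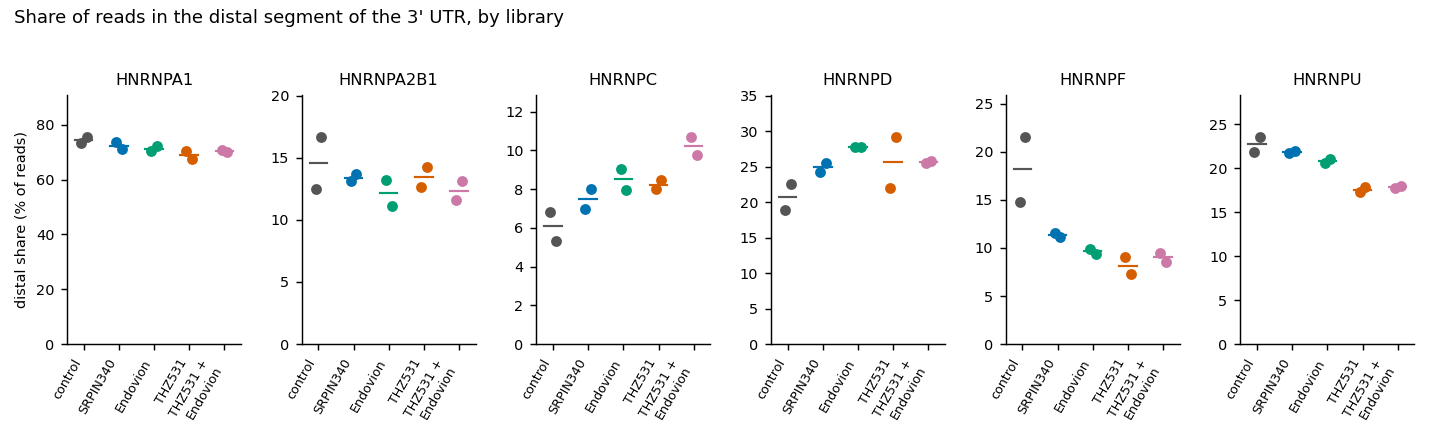
Share of reads in the distal part of the 3′ UTR (y axis, percent, from 0, scaled for each gene) in each library of 5 groups (x axis), for the 6 hnRNP genes whose reads were divided into 2 parts, with a line at the mean of 2 libraries. HNRNPF is at 14.8% and 21.6% in control cells and at 7.31% to 11.6% in treated cells, and HNRNPC is at 6.82% and 5.33% in control cells and 10.7% and 9.74% with THZ531 and Endovion.

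HNRNPC moved the other way. Its distal share was 6.82% and 5.33% in control cells, 6.97% and 8.01% with SRPIN340, 9.04% and 7.97% with Endovion, 7.98% and 8.48% with THZ531, and 10.7% and 9.74% with both. With both compounds the log2 odds were higher by 0.82 ± 0.17 (edgeR, adjusted p = 0.0184), beside a median of -0.12 over all genes. The call was lost without control replicate 2 (0.64, adjusted p = 0.121) or without THZ531_Endovion replicate 1 (0.74, adjusted p = 0.120) or 2 (0.90, adjusted p = 0.0649). The distal CPM of HNRNPC were 51.0 and 40.0 in control cells and 70.2 and 68.8 with both, and the proximal ones 696 and 711 against 586 and 638.

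HNRNPU had a distal share of 21.9% and 23.6% in control cells, 20.6% to 21.9% with SRPIN340 or Endovion, 17.3% and 17.8% with THZ531, and 17.7% and 18% with both. The libraries with THZ531 were below all others, but the change of -0.46 ± 0.14 with THZ531 and -0.43 ± 0.14 with both did not pass (edgeR, adjusted p = 0.0571 and 0.0641). All genes had a median of -0.15 and -0.12 in these comparisons. Both parts of HNRNPU had more reads with THZ531: the proximal CPM were 1089 and 1174 against 637 and 632 in control cells, and the distal ones 227 and 255 against 178 and 195. HNRNPA1, HNRNPA2B1 and HNRNPD were not called in any treatment. With SRPIN340, and with both compounds against THZ531 alone, 0 of 6 genes were called by edgeR (0.00% of all genes in each), with 1 and 0 at an unadjusted p under 0.05.

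Among 21 further genes of the hnRNP and related families, 20 were tested in nascent and in total RNA. In nascent RNA, 0 were called with SRPIN340, 1 rose with Endovion (HNRNPAB), 2 rose with THZ531 (HNRNPAB and PTBP3) and 2 rose with both compounds (HNRNPAB and HNRNPL). None was called as lower. Of all genes, 1.04%, 2.66%, 7.46% and 8.10% were called in these comparisons (0.845%, 2.04%, 3.86% and 4.61% as higher). HNRNPAB, a relative of HNRNPD, had log2 fold changes of 0.59 ± 0.17, 0.93 ± 0.17 and 1.01 ± 0.17 in these 3 treatments (edgeR, adjusted p = 0.0461, 0.000152 and 2.75e-05). In total RNA, 5 rose and 1 fell with Endovion, 7 rose and 1 fell with THZ531, and 8 rose and 1 fell with both, where 11.4%, 30.7% and 29.0% of all genes were called (8.90%, 16.6% and 16.6% as higher). The gene that fell was HNRNPDL, by 0.52 ± 0.11, 0.61 ± 0.11 and 0.60 ± 0.11 (adjusted p = 0.00955, 0.000952 and 0.00127). The genes that rose with THZ531 were HNRNPA3, HNRNPAB, HNRNPH3, HNRNPL, PTBP2, PTBP3 and PCBP2, with log2 fold changes from 0.37 to 0.93. For the distal share, 13 of the 21 genes were tested, and HNRNPH3 (-1.81 ± 0.35, adjusted p = 0.0132) and HNRNPR (0.97 ± 0.24, adjusted p = 0.0297) were called with THZ531, as were 12.8% of all genes.

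The SR genes, SRSF1 to SRSF12, are the other large family of splicing regulators. Of 11 tested in nascent RNA, 0 were called with SRPIN340 or THZ531 by edgeR, 1 fell with Endovion, and 1 rose and 1 fell with both compounds, against 1.04%, 7.46%, 2.66% and 8.10% of all genes called with SRPIN340, THZ531, Endovion and both. Of 12 tested in total RNA, 0 were called with SRPIN340, 2 rose and 3 fell with Endovion, 5 rose with THZ531, and 5 rose and 2 fell with both, against 1.96%, 11.4%, 30.7% and 29.0% of all genes called in this order.

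Across the 10 libraries, the nascent levels of the 10 genes did not all move alike. Pearson's r between a gene and the mean of the other 9, on log2 CPM, was 0.61 to 0.82 for HNRNPA1, HNRNPA2B1, HNRNPF, HNRNPK, HNRNPM and HNRNPU, 0.27 for HNRNPH1, 0.23 for HNRNPC, -0.32 for HNRNPD and -0.68 for HNRNPA0. Of 1462 genes with no fewer than 100 T>C reads per library, RBM17 (r = 0.98), CNIH1 (0.96) and RPRD2 (0.96) were most like the mean of the 10 genes. These are descriptions over 10 libraries in 5 groups, which share their scaling.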

How the data were processed

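Total RNA of 22RV1 cells labelled with 4-thiouridine was alkylated so that labelled T is read as C, and 3′ end libraries with molecular identifiers were read as single ends of 101 bases. Per the labels and the study's methods, the authors processed the reads with SLAM-DUNK against hg38. The submitters' processing notes also name Bowtie2 2.3.4.1, SAMtools 1.6 and DESeq2 1.38.2. Whether reads were reduced to molecules, and how many T>C changes a T>C read needs, are not given in the sources used here. The deposited tables give, for each of 104653 3′ UTR intervals, the count of all reads and the count of T>C reads, which were used. They also hold the authors' conversion rate as a fraction and a score column, which entered no test.

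Of 96427 intervals on main chromosomes, 92910 matched a transcript of GENCODE v44. Where intervals of a gene overlapped, the one with most reads was kept, which left 57437 intervals in 31015 genes, and 3.53% of T>C reads lay on unmatched intervals. CPM is the count divided by the TMM library size. Groups were compared with edgeR 4.0.16 (R 4.3.3, TMM, filterByExpr, robust quasi-likelihood test, all 10 libraries, 5 residual degrees of freedom), with p-values adjusted over all genes tested by Benjamini-Hochberg. The labelled share and the distal share were tested with the library as a block and an interaction of read class and group, each class scaled by its own total, so that values are relative to the library. All gene-wise p-values in the text are from edgeR unless another tool is named. A permutation of 2 against 2 libraries cannot go below p = 0.333 and was not used.

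The 10 genes are all named, and the lists of further hnRNP and SR genes follow their symbols. The genes, lists and tests were chosen with earlier results of these data known. The distal share and the comparisons of THZ531 with SRPIN340 or Endovion, and of both compounds with Endovion, were added after values had been seen. Tested on simulated data for THZ531 against control, 27.1% of changes of 1 on the log2 scale and 70.1% of changes of 2 in nascent RNA were called over all genes, and 58% of log2 odds changes of 1 in the labelled share. These values do not hold for genes as abundant as the 10, for which no separate value was taken. Libraries of a group differed by more than sampling noise (chi-square per degree of freedom 3.54 to 4.90). Same-numbered libraries did not deviate together (r from -0.15 to 0.20), so their numbers were not used as pairs. Alternatives were DESeq2 1.42.0, RLE factors, no filter, the compared groups only, the replicate number as a block, plain sums of intervals, the strongest interval only, T>C reads scaled by all reads, other scalings of the shares, and leaving out each library.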

Additional observations from a re-analysis of the deposited data

Results flagged for a closer look

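For the nascent RNA of HNRNPF, the interaction of Endovion and THZ531 was called with all 10 libraries, but not in every alternative. Without THZ531 the log2 change with Endovion was 1.02 (against control), and on top of THZ531 it was -0.12 (against THZ531 alone), so that the interaction was -1.14 ± 0.25 (edgeR, adjusted p = 0.0252). All 4 values of Endovion and THZ531 alone lay above both control libraries, and those of both compounds (331 and 462 CPM) lay on both sides of those with THZ531 alone (420 and 444 CPM). Both control libraries enter this value, and without control replicate 2 it was -0.90 and no longer called. The call held in 12 of 18 alternatives and was lost without either Endovion library, THZ531 replicate 2 or THZ531_Endovion replicate 1. In total RNA the interaction of HNRNPF was not called.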

How the results depend on the processing

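Of 32 called gene results, 7 kept the call in every alternative: nascent HNRNPF with THZ531 and with both compounds, and the 5 comparisons of total HNRNPU. Over all 540 values of called results under alternatives, 439 stayed called, 101 did not, and 0 changed sign. Of 3990 values of results not called, 26 became called. The cause of these differences was not tested. With plain sums of overlapping intervals, the number of the 10 genes called was 0 in nascent RNA for SRPIN340, Endovion, the interaction, THZ531 against SRPIN340 or Endovion, and both compounds against Endovion, and 0 for the labelled share with both compounds. With the compared groups only, which leaves fewer samples, it was 0 in nascent RNA for SRPIN340 and for both compounds against Endovion, 1 for Endovion, and in total RNA 3 for THZ531, 3 for both compounds and 2 for THZ531 against SRPIN340. With T>C reads scaled by all reads, 1 gene was called in nascent RNA with Endovion, and the median of all genes moved to -0.10 for Endovion against control and 0.11 for THZ531 against Endovion. With no filter, the total counts were 2 for SRPIN340, 2 for Endovion, 1 for the interaction and 3 for THZ531 against SRPIN340. DESeq2 called 3 in total RNA with Endovion. The number of all genes called also moves with the setting. In nascent RNA with THZ531, 384 genes were higher and 358 lower in the main fit, and 286 and 257 with DESeq2. With Endovion these were 203 and 62 in the main fit, and 166 and 95 when scaled by all reads. For the other settings the share of all genes is not given, so these counts do not describe the 10 genes alone. The replicate block, though the numbers do not pair the libraries, ended the calls of total HNRNPA2B1 with Endovion (0.83, adjusted p = 0.0554, leaving 0 genes) and of total HNRNPF with both compounds (1.14, adjusted p = 0.0644), and no other call was changed by it.

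Leaving out 1 library at a time, the number of the 10 genes called in nascent RNA ranged from 0 to 1 for SRPIN340, 1 to 3 for Endovion, 1 to 4 for THZ531, and 0 to 1 for the interaction and for the 3 comparisons with SRPIN340 or Endovion as the base. In total RNA it ranged from 0 to 3 for SRPIN340, Endovion and the interaction, 1 to 5 for THZ531, 1 to 5 for both compounds, 1 to 3 for THZ531 against SRPIN340 and 1 to 2 against Endovion. For the labelled share with both compounds it was 0 to 1, and for the distal share 0 to 1 for SRPIN340 and Endovion and 0 to 2 for THZ531 and for both compounds. The lone library of a group is then assumed to vary like the other groups. The share of all genes called in these fits is not given, so the counts cannot be set against it. Nascent RNA rests on fewer counts, 194 to 1655 T>C reads per gene and library against 4119 to 35697 reads. With THZ531 its SE was nevertheless smaller than in total RNA for HNRNPF, HNRNPA2B1 and HNRNPK, and larger for HNRNPU.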
